A study of Mus musculus with 12 samples.

Results

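The genes described here are 10 members of the AP-1 group of transcription factors and their close relatives: the FOS genes *Fos*, *Fosb*, *Fosl1* and *Fosl2*, the JUN genes *Jun*, *Junb* and *Jund*, and the related genes *Atf3*, *Batf3* and *Maff*. They were taken by symbol from the 49315 genes of the deposited table of read counts, and all 10 were found, each under 1 Ensembl identifier. RNA was sequenced from 12 mouse (C57BL/6) libraries, 3 in each of 4 groups: lung group 2 innate lymphoid cells (ILC2s) cultured with eosinophils, ILC2s cultured alone, blood eosinophils cultured with ILC2s, and eosinophils cultured alone. ILC2s are lymphocytes without antigen receptors that make type 2 cytokines, and eosinophils are granulocytes of type 2 immunity. Per the labels' protocols, all ILC2s had been grown up in IL-2 and IL-7 plus the alarmin cytokines IL-25 and IL-33, the last 48 h without the alarmins. All eosinophils were the cells that passed B220 and CD90 bead columns unbound, and had spent 24 h with IL-33. The cells were washed, cultured for 24 h in medium with no cytokine added, separated by flow cytometry and lysed. Neither cell type was measured without its cytokine pretreatment, and the labels do not say whether cells cultured alone were sorted, so that coculture and any sorting cannot be told apart. The labels also do not say that the 3 libraries of a group came from separate cultures or animals, so the p-values measure only the spread between these libraries.

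AP-1 is a dimer of basic leucine zipper (bZIP) proteins. FOS proteins bind DNA only as partners of JUN proteins, whereas JUN proteins also pair with one another, and the dimers bind the sequence TGANTCA and, with ATF partners, the related cyclic AMP response element TGACGTCA. *Fos*, *Fosb*, *Jun*, *Junb* and *Atf3* are immediate early genes, whose short-lived transcripts rise within minutes of signals through mitogen-activated protein kinases, while *Jund* is expressed more steadily. In lymphocytes and granulocytes AP-1 is known for its part in cytokine transcription after stimulation.

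The start regions of 5 members that were higher in ILC2s cultured with eosinophils are shown, chosen because each holds a motif marked below. Of the other members higher there, *Jund* and *Fosl2* had none of these motifs in their regions, and *Atf3*, with TGACG on the other strand, is not shown. The *Jund* region (chr8:70697489-70697738, plus strand) ends well before the start of the gene as counted (chr8:70698949). The *Fosl2* region (chr5:32136222-32136471, plus strand) lies after the start of the gene as counted (chr5:32135801). The lack of a motif in both regions therefore does not describe the sequence just before the start of either gene as counted. Each region is the 250 bases before a transcription start from RefSeq (GRCm38.p6), written 5′ to 3′ on the strand of the gene. Matches to TGACG, TGACATCA or TGACGTCA are in capitals.
Fos (chr12:85473640-85473889, plus strand): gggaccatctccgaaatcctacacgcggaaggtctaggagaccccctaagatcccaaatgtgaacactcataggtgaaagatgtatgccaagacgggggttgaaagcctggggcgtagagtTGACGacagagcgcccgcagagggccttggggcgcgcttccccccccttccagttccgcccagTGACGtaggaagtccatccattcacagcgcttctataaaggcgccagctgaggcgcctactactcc
Fosb (chr7:19310046-19310295, minus strand): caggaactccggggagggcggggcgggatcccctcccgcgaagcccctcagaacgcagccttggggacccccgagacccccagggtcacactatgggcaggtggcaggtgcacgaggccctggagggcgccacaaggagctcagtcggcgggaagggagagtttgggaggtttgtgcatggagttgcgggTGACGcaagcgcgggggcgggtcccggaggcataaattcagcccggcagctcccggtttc
Jun (chr4:95052223-95052472, minus strand): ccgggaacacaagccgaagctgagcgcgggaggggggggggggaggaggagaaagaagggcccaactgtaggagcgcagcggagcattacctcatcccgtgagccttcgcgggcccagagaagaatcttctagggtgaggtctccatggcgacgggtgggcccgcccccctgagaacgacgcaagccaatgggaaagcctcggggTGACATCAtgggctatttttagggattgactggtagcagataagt
Junb (chr8:84978749-84978998, minus strand): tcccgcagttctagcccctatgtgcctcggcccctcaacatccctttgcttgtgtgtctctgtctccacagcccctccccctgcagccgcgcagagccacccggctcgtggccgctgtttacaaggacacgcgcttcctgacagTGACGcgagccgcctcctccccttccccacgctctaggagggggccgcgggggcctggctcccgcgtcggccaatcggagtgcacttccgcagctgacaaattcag
Maff, from the second of its 3 starts (chr15:79347270-79347519, plus strand): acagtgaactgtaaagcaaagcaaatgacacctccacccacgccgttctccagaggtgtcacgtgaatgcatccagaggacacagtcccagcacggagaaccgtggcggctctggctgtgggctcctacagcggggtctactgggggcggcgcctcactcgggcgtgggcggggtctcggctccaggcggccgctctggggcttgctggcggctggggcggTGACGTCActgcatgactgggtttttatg
Of the 10 members, 9 had an entry in that collection, with 11 start regions in all. Both strands were searched for these 3 motifs, for the AP-1 motif given above, for the STAT motif TTCNNNGAA and for the CArG box, to which serum response factor binds. A match to TGACGTCA holds the shorter TGACG on either strand as well. TGACG was present in 6 of the 11 regions, from 5 of the 9 members, and in 17.8% of all 32851 mouse start regions. In *Fos* it lay at -129 to -125 and at -66 to -62 from the start, in *Fosb* at -60 to -56 and in *Junb* at -106 to -102. The full TGACGTCA was found at -29 to -22 of that *Maff* start and in 1.55% of all regions. TGACATCA was present in 2 of the 11 regions, at -45 to -38 in *Jun* and at the same place before the third *Maff* start, and in 2.93% of all regions. The STAT motif was found in 1 member region, that of *Batf3* at -239 to -231, and in 7.02% of all regions. The AP-1 motif, present in 6.75% of all regions, and the CArG box, present in 1.47%, had no match in these 11 regions. These matches describe letters in a window and are no evidence that a factor was bound. Sequence farther than 250 bases before a start, or after it, was not searched. A motif without a match here may therefore lie outside the window.

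Library totals lay between 16769929 and 22928961 counts. Before the TMM scaling described next, 3 counts corresponded to 0.131 to 0.179 CPM (counts scaled to a common library size). That scaling moves this floor: *Fosb* in eosinophils with ILC2s replicate 1 had 3 counts, or 0.185 CPM. Levels below are CPM after TMM scaling, which sets all 12 libraries on 1 scale, and differences are log2 fold changes ± SE from edgeR's quasi-likelihood test, called when the Benjamini-Hochberg adjusted p over all genes tested was under 0.05. The labelled cell types carried their markers: 12 eosinophil markers summed to 13400 to 13800 CPM in eosinophils with ILC2s and 10600 to 11700 CPM in eosinophils alone. In ILC2s with eosinophils the same markers summed to 2.66 to 3.77 CPM, and in ILC2s alone to 2.79 to 3.47 CPM, with *Prg3* at 0 in both. The sum in ILC2s with eosinophils was 0.0247% of that in the cocultured eosinophils, and the sum in ILC2s alone was 0.0233%. In bulk RNA, fewer cells with a transcript and less of it per cell cannot be told apart.

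The first comparison asks what eosinophils do to AP-1 expression in ILC2s. Of the 9 members tested, 8 were higher in ILC2s with eosinophils than in ILC2s alone and 0 were lower (edgeR; 0 also at an unadjusted p under 0.05 and 0 with DESeq2); *Fosl1* was not called and *Batf3* was too low to test. This contrast was broad, with 37.2% of the 14438 genes tested called higher and 35.2% called lower. The median log2 fold change was 1.23 over the members tested and 0.01 over all genes tested. With scaling by library totals alone, 4389 genes were called higher and 6327 lower, against 5372 and 5086 with TMM, the median of all genes moved by -0.16 on the log2 scale, and 7 members were called higher. It was also 7 members with upper quartile scaling, TMM over the libraries of the fit alone, DESeq2, no filter and 1 fit of all libraries.

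**Figure D1:**
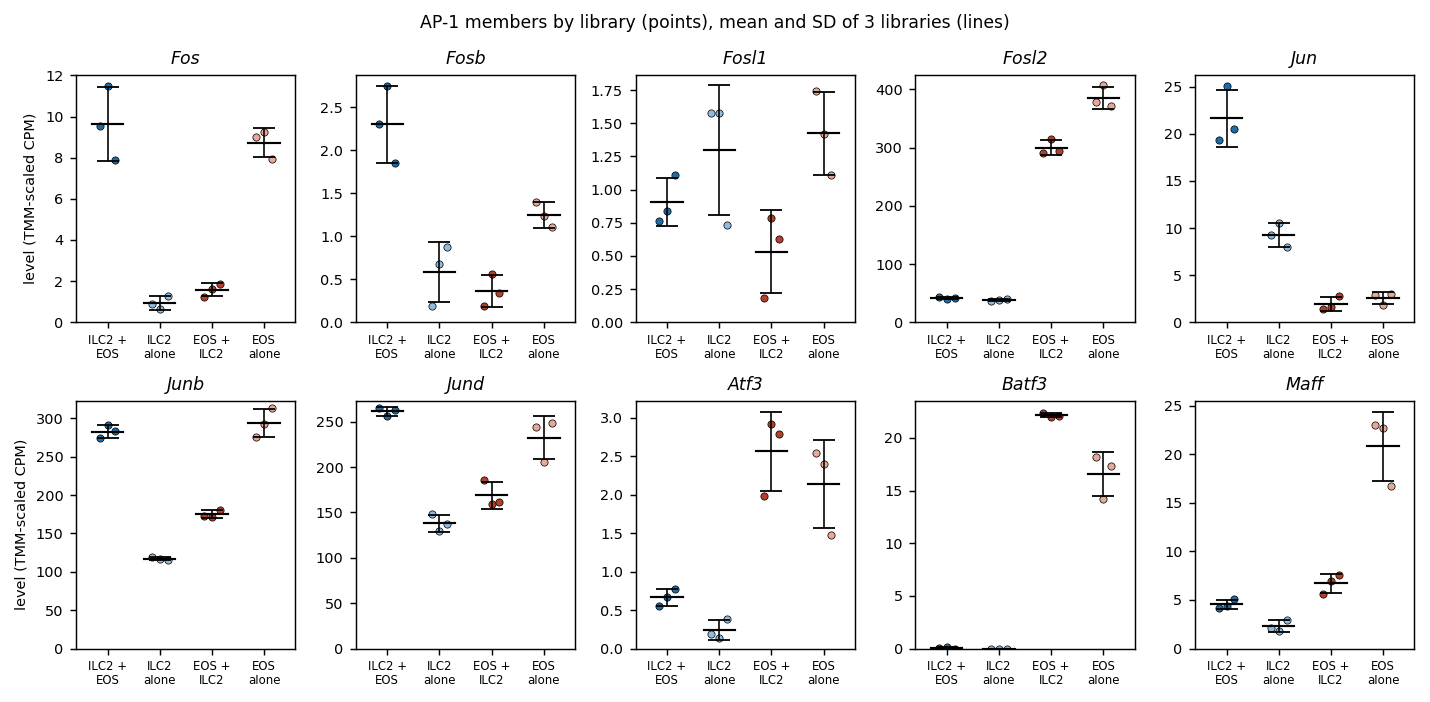
Level of each of the 10 members (TMM-scaled CPM, linear axis, 1 panel per gene) in each of the 12 libraries (points), with the mean and SD of the 3 libraries of a group (lines). *Fos* was high in ILC2s with eosinophils (7.88 to 11.5 CPM) and in eosinophils alone (7.92 to 9.23 CPM) and at most 1.88 CPM in the other 6 libraries.

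*Fos* (ENSMUSG00000021250, mm10 chr12:85473890-85477273, plus strand, 4 exons), the archetypal immediate early partner of JUN proteins, had 9.56, 11.5 and 7.88 CPM in ILC2s with eosinophils, against 0.911, 0.63 and 1.29 CPM in ILC2s alone. All 3 cocultured libraries were far above all 3 others. The log2 fold change was 3.30 ± 0.21, or 9.88-fold (edgeR adjusted p = 1.11e-14), the largest among the members tested. *Fosb* (ENSMUSG00000003545, chr7:19302696-19310051, minus strand, 4 exons), another signal-induced FOS gene, had 2.30, 2.75 and 1.85 CPM in ILC2s with eosinophils, against 0.192, 0.675 and 0.872 CPM in ILC2s alone. The groups did not overlap, although the lowest ILC2 library rested on 4 counts, and the log2 fold change was 1.91 ± 0.34 (edgeR adjusted p = 1.27e-05).

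The remaining FOS genes encode the FOS-related antigens FRA-1 and FRA-2. *Fosl2* (ENSMUSG00000029135, chr5:32135801-32157842, plus strand, 4 exons), which encodes FRA-2, had 43.1, 39.9 and 42.1 CPM in ILC2s with eosinophils, against 36.3, 37.5 and 39.9 CPM in ILC2s alone. The groups met at 39.9 CPM, and the log2 fold change of 0.14 ± 0.06 was only just called (edgeR adjusted p = 0.0448). That call depended on the settings: with library totals the log2 fold change was -0.03 (edgeR adjusted p = 0.68), and DESeq2 gave an adjusted p of 0.111. TMM over the libraries of the fit alone gave 0.13 (edgeR adjusted p = 0.058), and upper quartile scaling 0.06 (adjusted p = 0.37). Without ILC2s alone replicate 1 or 2, or ILC2s with eosinophils replicate 1 or 3, the adjusted p was 0.147, 0.0963, 0.149 and 0.0937 in that order. *Fosl1* (ENSMUSG00000024912, chr19:5447547-5455946, plus strand, 4 exons), which encodes FRA-1, had 0.905 ± 0.18 CPM in ILC2s with eosinophils and 1.30 ± 0.489 CPM in ILC2s alone (SD, n = 3 each), with overlapping libraries (log2 fold change -0.48 ± 0.35, edgeR adjusted p = 0.215). Without ILC2s alone replicate 3 it was called lower, at -0.80 ± 0.34 (edgeR adjusted p = 0.0436).

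All 3 JUN genes, each of a single exon, were higher in ILC2s with eosinophils. *Jun* (ENSMUSG00000052684, chr4:95049034-95052222, minus strand), the strongest activator of the family, had 19.3, 25.1 and 20.5 CPM in ILC2s with eosinophils, against 9.30, 10.5 and 7.99 CPM in ILC2s alone. *Junb* (ENSMUSG00000052837, chr8:84974484-84978718, minus strand), known for its part in type 2 cytokine expression by T helper cells, had 274, 291 and 283 CPM in ILC2s with eosinophils, against 119, 117 and 115 CPM in ILC2s alone. *Jund* (ENSMUSG00000071076, chr8:70698949-70700616, plus strand), a broadly expressed JUN gene, had 265, 256 and 263 CPM in ILC2s with eosinophils, against 148, 129 and 137 CPM in ILC2s alone. For each gene the 3 cocultured libraries lay above the 3 others with no overlap. The log2 fold changes were 1.23 ± 0.11 for *Jun* (edgeR adjusted p = 2.9e-11), 1.27 ± 0.039 for *Junb* (adjusted p = 3.88e-22) and 0.92 ± 0.043 for *Jund* (adjusted p = 8.67e-18). Exons of *Junb* overlap *Prdx2* on the other strand, and the strand setting of the counting is not given in the sources used here, so their reads may not be separated. *Prdx2*, a peroxide-reducing enzyme, had 110 ± 4.2 CPM in ILC2s with eosinophils and 65.1 ± 0.261 CPM in ILC2s alone (SD, n = 3 each). The transcript opposite *Jun*, *Junos*, had at most 0.793 CPM in any group on average.

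Among the relatives, *Maff* (ENSMUSG00000042622, chr15:79346621-79359076, plus strand, 3 exons) encodes a small MAF protein without an activation domain. It had 4.17, 4.39 and 5.09 CPM in ILC2s with eosinophils, against 2.11, 1.85 and 2.97 CPM in ILC2s alone. The groups did not overlap, and the log2 fold change was 0.96 ± 0.19 (edgeR adjusted p = 7.31e-05). *Atf3* (ENSMUSG00000026628, chr1:191170296-191218039, minus strand, 4 exons), a stress-induced bZIP factor that often represses its targets, had 0.553, 0.665 and 0.779 CPM in ILC2s with eosinophils, against 0.192, 0.135 and 0.384 CPM in ILC2s alone. These levels rest on 47 counts over the 3 cocultured libraries and 18 over the others. The groups did not overlap (log2 fold change 1.41 ± 0.47, edgeR adjusted p = 0.00916), but the call was lost without ILC2s alone replicate 2, at 1.14 ± 0.52 (edgeR adjusted p = 0.0521). *Batf3* (ENSMUSG00000026630, chr1:191097847-191108945, plus strand, 4 exons), best known for its role in cross-presenting dendritic cells, had 4 counts over the 3 libraries of ILC2s with eosinophils and 0 over those of ILC2s alone.

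Beside these rises, the 10 ILC2 markers summed to 4510 to 4740 CPM in ILC2s with eosinophils and 4910 to 4950 CPM in ILC2s alone. Of these 10, all tested, 2 were higher and 7 lower, with *Il2ra* at 1390 ± 53.6 CPM with eosinophils against 313 ± 7.77 CPM alone and *Il7r* at 239 ± 25 CPM against 1390 ± 10.4 CPM (SD, n = 3 each). The 11 basophil and mast cell markers summed to 25.3 to 33.2 CPM with eosinophils and 49.5 to 53.6 CPM alone (2 of 3 tested lower). Most of that sum was *Cd200r3*, at 26.7 ± 4.59 CPM against 49.6 ± 1.92 CPM. *Mcpt8* had 23 counts with eosinophils and 5 alone, *Fcer1a* 10 and 0, *Ms4a2* 7 and 0, and *Hdc* 41 and 23. *Cpa3* had 23 and 68, *Gata2* 9 and 11 and *Cma1* 0 and 3 in the same order. The 6 B cell markers summed to 51.9 to 59.5 CPM with eosinophils and 126 to 138 CPM alone (1 of 3 tested higher and 2 lower). Most of this was *Ighm*, at 47.4 ± 3.5 CPM against 124 ± 5.78 CPM, while *Cd79b* was at 7.63 ± 0.17 CPM against 5.26 ± 0.908 CPM. The 7 red cell and platelet markers summed to 14.8 to 18.6 CPM with eosinophils and 4.32 to 5.51 CPM alone (1 of 3 tested higher and 1 lower), with *Hba-a1* at 14.4 ± 2.09 CPM against 0.39 ± 0.121 CPM and *Itga2b* at 1.21 ± 0.155 CPM against 3.6 ± 0.332 CPM (SD, n = 3 each). The 8 neutrophil markers summed to 1.68 to 5.53 CPM with eosinophils and 0.0349 to 0.225 CPM alone, and the 1 tested, *Mpo*, was higher, with 171 counts over the cocultured libraries and 3 over the others. The 8 T cell markers summed to 146 to 158 CPM with eosinophils and 162 to 175 CPM alone (3 of 5 tested higher and 1 lower). The 8 monocyte or macrophage markers summed to 1.4 to 1.68 CPM and 1.01 to 1.22 CPM in the same order (1 tested, not called). The single markers were picked out after their values were seen. The part of such cells in the AP-1 levels was not tested.

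The second comparison asks the same of eosinophils exposed to ILC2s, and most members moved the other way. Of the 10 members, all of them tested, 7 were lower in eosinophils with ILC2s than in eosinophils alone (*Fos*, *Fosb*, *Fosl1*, *Fosl2*, *Junb*, *Jund* and *Maff*), and 1, *Batf3*, was higher. Over all 13109 genes tested, 12.4% were called lower and 13.5% higher. The median log2 fold change was -0.60 over the members and 0.03 over all genes tested. Without eosinophils with ILC2s replicate 3, 1135 of all genes were called higher in place of 1767, and 5 members lower.

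*Fos* fell to 1.23, 1.63 and 1.88 CPM in eosinophils with ILC2s, against 9.01, 9.23 and 7.92 CPM in eosinophils alone. No library overlapped, and the log2 fold change was -2.45 ± 0.21, or 5.48-fold lower (edgeR adjusted p = 6.46e-07). *Fosb* had 0.185, 0.562 and 0.341 CPM in eosinophils with ILC2s, against 1.40, 1.23 and 1.11 CPM in eosinophils alone. These are 19 counts over the cocultured libraries and 59 over the others, and the groups did not overlap (log2 fold change -1.75 ± 0.45, edgeR adjusted p = 0.0109). Its call was lost without eosinophils with ILC2s replicate 1 (-1.45, edgeR adjusted p = 0.0576) or replicate 3 (-1.70, adjusted p = 0.0538).

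*Fosl2* was the most abundant FOS gene of eosinophils per kb of exon, at 31.0 ± 1.29 CPM per kb in eosinophils with ILC2s and 39.8 ± 1.98 in eosinophils alone (SD, n = 3 each), where *Fos* had 0.672 ± 0.137 and 3.71 ± 0.3. In CPM it had 291, 314 and 295 CPM in eosinophils with ILC2s, against 378, 407 and 371 CPM in eosinophils alone. All cocultured libraries were lower, at -0.36 ± 0.06 on the log2 scale (edgeR adjusted p = 0.000443). *Fosl1* had 0.185, 0.787 and 0.625 CPM in eosinophils with ILC2s, against 1.74, 1.42 and 1.11 CPM in eosinophils alone. The groups did not overlap (log2 fold change -1.38 ± 0.46, edgeR adjusted p = 0.0396), but the counts were few and the call did not hold when some libraries were left out. The adjusted p was 0.147 without eosinophils alone replicate 1, 0.0564 without replicate 2, 0.146 without eosinophils with ILC2s replicate 1 and 0.0948 without replicate 3. *Fosl1* also overlaps *Ccdc85b* on the other strand, which had 14.0 ± 2.27 CPM in eosinophils with ILC2s and 14.8 ± 0.393 CPM in eosinophils alone (SD, n = 3 each).

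Of the JUN genes, *Junb* had 173, 172 and 181 CPM in eosinophils with ILC2s, against 276, 293 and 313 CPM in eosinophils alone. *Jund* had 186, 159 and 162 CPM in eosinophils with ILC2s, against 244, 205 and 248 CPM in eosinophils alone. Neither gene overlapped between the groups, and the log2 fold changes were -0.75 ± 0.063 for *Junb* (edgeR adjusted p = 6.23e-07) and -0.46 ± 0.082 for *Jund* (adjusted p = 0.000755). *Jun* itself was low in eosinophils, at 1.36, 1.63 and 2.79 CPM with ILC2s, against 2.94, 1.85 and 2.97 CPM alone. Its groups overlapped and it was not called (log2 fold change -0.42 ± 0.33, edgeR adjusted p = 0.401).

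*Maff* fell to 5.62, 6.91 and 7.56 CPM in eosinophils with ILC2s, against 23.0, 22.7 and 16.7 CPM in eosinophils alone. Every cocultured library was below every other one, with a log2 fold change of -1.63 ± 0.15, or 3.09-fold lower (edgeR adjusted p = 2.08e-06). *Batf3* went against the rest, with 22.4, 22.0 and 22.1 CPM in eosinophils with ILC2s, against 18.2, 14.2 and 17.3 CPM in eosinophils alone. The cocultured libraries lay close together and above the others (log2 fold change 0.42 ± 0.11, edgeR adjusted p = 0.0109). *Atf3*, whose gene lies 61.4 kb from *Batf3* on the opposite strand, had 2.56 ± 0.511 CPM in eosinophils with ILC2s and 2.14 ± 0.573 CPM in eosinophils alone (SD, n = 3 each). Its libraries overlapped and it was not called (log2 fold change 0.26 ± 0.29, edgeR adjusted p = 0.569).

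Of the 12 eosinophil markers, all tested, 7 were higher in eosinophils with ILC2s and 2 lower. Some markers of other cells in that fraction were lower with ILC2s, and others were higher or not called. The 11 basophil and mast cell markers summed to 127 to 134 CPM in eosinophils with ILC2s and 260 to 290 CPM in eosinophils alone. Of the 6 tested, 4 were lower, with *Gata2*, which eosinophils also express, at 94.1 ± 4.63 CPM against 184 ± 13.3 CPM, while the mast cell proteases *Tpsab1* and *Mcpt4* were at 0 in both. The 8 neutrophil markers summed to 10.3 to 11.5 CPM with ILC2s and 15.8 to 21.4 CPM alone (2 of 5 tested lower). The 8 monocyte or macrophage markers summed to 2130 to 2170 CPM with ILC2s and 2300 to 2430 CPM alone (3 of 5 tested lower). The 6 B cell markers summed to 251 to 282 CPM with ILC2s and 202 to 244 CPM alone (3 tested, none called). The 7 red cell and platelet markers summed to 583 to 603 CPM with ILC2s and 586 to 649 CPM alone (1 of 2 tested higher). The 8 T cell markers summed to 1.82 to 4.01 CPM and 4.12 to 4.67 CPM in the same order (1 tested, not called). The 10 ILC2 markers, most of their sum from *Id2*, which is widely expressed, summed to 675 to 753 CPM with ILC2s and 537 to 644 CPM alone. Of the 7 tested, 1 was higher and 4 lower, and markers picked out after their values were seen were *Gata3* at 0.315 ± 0.155 CPM with ILC2s against 1.46 ± 0.708 CPM alone, *Il2ra* at 0.614 ± 0.273 CPM against 1.54 ± 0.64 CPM and *Kit* at 3.15 ± 0.937 CPM against 13.7 ± 1.42 CPM (SD, n = 3 each). The part of these markers' cells in the lower AP-1 levels was not tested.

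**Figure D2:**
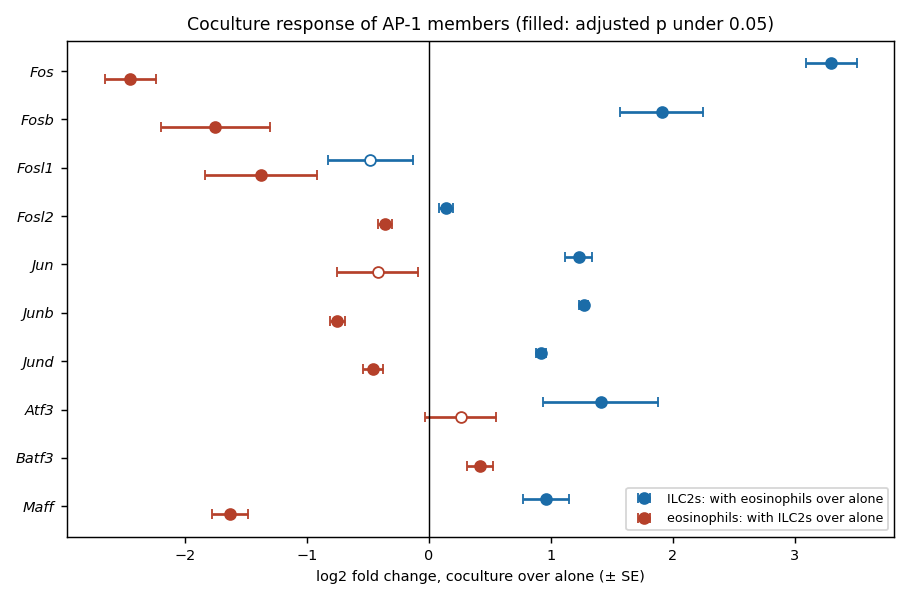
Log2 fold change of each member, coculture over alone (points, with SE bars), in ILC2s and in eosinophils, 3 libraries a group, with filled points for an edgeR adjusted p under 0.05. *Fos*, *Fosb*, *Junb*, *Jund* and *Maff* lie above 0 in ILC2s and below 0 in eosinophils; *Batf3* has no ILC2 point because it was too low to test there.

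The difference between the responses was tested over all 12 libraries, as the coculture change in ILC2s minus that in eosinophils; it uses the same libraries as the single comparisons. Of the 10 members, 7 were called above 0 and 0 were called below 0 (edgeR). The count below 0 was also 0 at an unadjusted p under 0.05 and with DESeq2. Of all 15745 genes tested, 26.8% were called above 0 and 24.8% below 0. The median difference was 1.83 on the log2 scale over the members and 0.01 over all genes tested. With library totals the median over all genes moved by -0.19, and 3357 genes were called above 0 and 5110 below, against 4215 and 3899 with TMM; 7 members were called above 0 with either scaling. *Fos* differed most, by 5.76 ± 0.32 (edgeR adjusted p = 2.46e-13). *Fosb* differed by 3.67 ± 0.62, *Maff* by 2.58 ± 0.25 and *Junb* by 2.02 ± 0.076, with edgeR adjusted p of 2.37e-05, 7.72e-09 and 2.38e-16 in that order. *Jun* differed by 1.64 ± 0.31 and *Jund* by 1.38 ± 0.099 (edgeR adjusted p = 8.97e-05 and 3.42e-11). *Fosl2* differed by 0.50 ± 0.081 (edgeR adjusted p = 1.61e-05). *Fosl1* did not pass, at 0.89 ± 0.61 (edgeR adjusted p = 0.233). *Atf3* did not pass either, at 1.14 ± 0.56 (edgeR adjusted p = 0.0923), but was called without ILC2s alone replicate 3 (1.73, adjusted p = 0.0317) or eosinophils alone replicate 3 (1.35, adjusted p = 0.0497). The difference for *Batf3* rests on 4 counts in all ILC2 libraries and is given no weight.

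Between the cell types, most members were higher in eosinophils as long as each cell was cultured alone. Comparing ILC2s alone with eosinophils alone, 8 members were lower in ILC2s and 1, *Jun*, was higher, where 40.0% of the 14525 genes tested were called lower and 40.6% higher. The median log2 fold change was -2.21 over the members, also with *Batf3* held at its bound below, and 0.02 over all genes tested. *Fosl2* was 10.2-fold lower in ILC2s, at 37.9 ± 1.82 CPM against 386 ± 19.2 CPM in eosinophils (SD, n = 3 each; log2 fold change -3.34 ± 0.068, edgeR adjusted p = 4.78e-16). *Fos* was lower, at -3.17 ± 0.24, *Maff* at -3.14 ± 0.18 and *Atf3* at -3.08 ± 0.44 on the log2 scale (edgeR adjusted p = 7.09e-09, 2.69e-10 and 1.1e-05). *Batf3* had 0 counts in ILC2s and 783 in eosinophils, so that it was at least 395-fold higher in eosinophils when the ILC2 group is set to 3 counts. *Jun*, alone among the members, was higher in ILC2s, at 9.26 ± 1.25 CPM against 2.58 ± 0.639 CPM in eosinophils (SD, n = 3 each; log2 fold change 1.84 ± 0.2, edgeR adjusted p = 5.67e-07). *Fosb* was lower in ILC2s, at -1.05 ± 0.45 (edgeR adjusted p = 0.041), a call lost with library totals (-0.48, adjusted p = 0.331), with upper quartile scaling (-0.81, adjusted p = 0.108) and with DESeq2 (-1.07, adjusted p = 0.066). It was also lost without ILC2s alone replicate 1 or 2 (-0.67 and -1.15, adjusted p = 0.161 and 0.0719) or without any 1 library of eosinophils alone (adjusted p = 0.0592 to 0.12).

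Between cocultured cells the sign was opposite for *Fos*, *Fosb*, *Junb* and *Jund*, all 4 of which passed the test of the difference of responses. Between ILC2s with eosinophils and eosinophils with ILC2s, 5 members were higher in ILC2s (*Fos*, *Fosb*, *Jun*, *Junb* and *Jund*) and 4 were lower (*Fosl2*, *Atf3*, *Batf3* and *Maff*), where 43.8% of the 14634 genes tested were called higher and 40.2% lower. The median log2 fold change was 0.66 over the members and 0.06 over all genes tested. *Fos* was 9.65 ± 1.83 CPM in ILC2s and 1.58 ± 0.323 CPM in eosinophils (SD, n = 3 each), a log2 fold change of 2.60 ± 0.2 (edgeR adjusted p = 1.2e-12). *Jun* was 11.1-fold higher in ILC2s (3.48 ± 0.17, edgeR adjusted p = 3.27e-17). *Junb* and *Jund* were higher by 0.69 ± 0.047 and 0.63 ± 0.054 (edgeR adjusted p = 8.88e-14 and 1.11e-11). *Fosl2* remained lower in ILC2s, at -2.85 ± 0.054 (edgeR adjusted p = 2.19e-27). *Batf3* had 4 counts in ILC2s and 1144 in eosinophils, 391-fold higher in eosinophils with a 95% counting interval of 152 to 1440. *Maff* was lower, at -0.56 ± 0.16 (edgeR adjusted p = 0.00271), which was not called with library totals (-0.17, adjusted p = 0.325), and *Fosl1* was not called (0.74 ± 0.43, adjusted p = 0.107) but passed with library totals (1.12, adjusted p = 0.016), with upper quartile scaling (0.93, adjusted p = 0.0447) and without eosinophils with ILC2s replicate 2 (1.13, adjusted p = 0.049).

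The cell type comparisons depend on how 2 different cells are scaled. With library totals the median of all genes moved by 0.58 between cells alone and by 0.39 between cocultured cells. The calls then were 8586 higher and 3666 lower in ILC2s alone, against 5892 and 5815 with TMM, and 8174 higher and 4247 lower in cocultured ILC2s, against 6414 and 5882 with TMM. No member called in either comparison changed sign under library totals, and *Fosl1*, not called between cells alone, had 0.42 there (edgeR adjusted p = 0.307), against -0.15 ± 0.38 with TMM (adjusted p = 0.719).

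**Figure D3:**
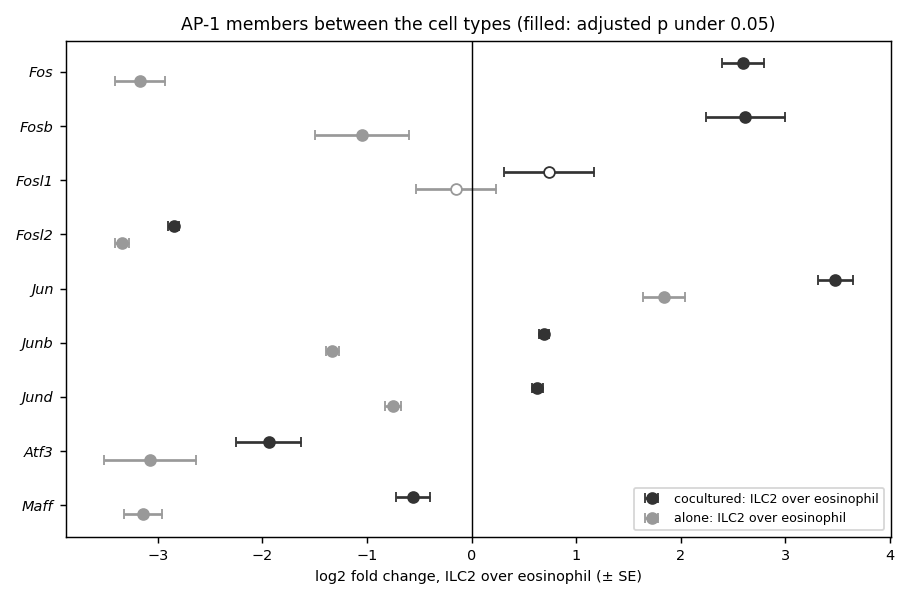
Log2 fold change of 9 members, ILC2 over eosinophil (points, with SE bars), between cocultured cells (dark) and between cells cultured alone (grey), 3 libraries a group, with filled points for an edgeR adjusted p under 0.05. *Fos*, *Fosb*, *Junb* and *Jund* lie left of 0 between cells alone and right of 0 between cocultured cells; *Batf3* is not drawn because ILC2s had 0 and 4 counts.

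Set in order of mean level, the 4 groups gave different patterns for different members. *Fos* was highest in ILC2s with eosinophils (9.65 CPM) and in eosinophils alone (8.72 CPM), whose libraries overlapped, and low in eosinophils with ILC2s (1.58 CPM) and ILC2s alone (0.944 CPM), which also overlapped. *Junb* had the same order of high and low groups, with eosinophils alone (294 ± 18.9 CPM) and ILC2s with eosinophils (283 ± 8.73 CPM) overlapping, above eosinophils with ILC2s (175 ± 5.08 CPM) and ILC2s alone (117 ± 2.46 CPM), which did not. *Jund* followed the order ILC2s with eosinophils, eosinophils alone, eosinophils with ILC2s and ILC2s alone, at 261, 232, 169 and 138 CPM, with no neighbours overlapping. *Jun* ranked by cell type instead, with both ILC2 groups above both eosinophil groups, and the eosinophil groups overlapped. *Fosl2*, *Maff*, *Batf3* and *Atf3* had both eosinophil groups above both ILC2 groups. For *Fosl1* each group overlapped its neighbour in the order.

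Per length of annotated exons, which lets different genes be compared, *Jund* and *Junb* made up most of the FOS and JUN transcript level in every group. The summed level of the 7 FOS and JUN genes was 295 ± 2.3 CPM per kb in ILC2s with eosinophils, 142 ± 6.12 in ILC2s alone, 210 ± 7.08 in eosinophils with ILC2s and 312 ± 15.1 in eosinophils alone (SD, n = 3 each). *Jund* held 53.0% ± 1.36 of that sum in ILC2s with eosinophils and 58.4% ± 1.52 in ILC2s alone, and 48.1% ± 2.69 in eosinophils with ILC2s and 44.6% ± 2.94 in eosinophils alone. *Junb* held 41.6% ± 0.963 in ILC2s with eosinophils and 35.9% ± 1.11 in ILC2s alone, and 36.3% ± 1.7 in eosinophils with ILC2s and 40.9% ± 2.18 in eosinophils alone. *Fosl2* separated the cell types, with 1.46% ± 0.0674 in ILC2s with eosinophils and 2.77% ± 0.219 in ILC2s alone, and 14.8% ± 1.07 in eosinophils with ILC2s and 12.8% ± 1.23 in eosinophils alone. *Fos*, despite its large fold changes, held 1.39% ± 0.257 in ILC2s with eosinophils and 0.283% ± 0.1 in ILC2s alone, and 0.321% ± 0.0727 in eosinophils with ILC2s and 1.19% ± 0.15 in eosinophils alone. With the length of the longest annotated transcript in place of the exon union, the share of *Jund* in eosinophils alone was 37.9% and that of *Junb* 44.3%, so that their order there turns with the length used. With that length the shares of *Jund* and *Junb* were 47.2% and 47.1% in ILC2s with eosinophils, so that the lead of *Jund* there was lost. They were 41.1% and 39.5% in eosinophils with ILC2s and 52.6% and 41.1% in ILC2s alone.

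**Figure D4:**
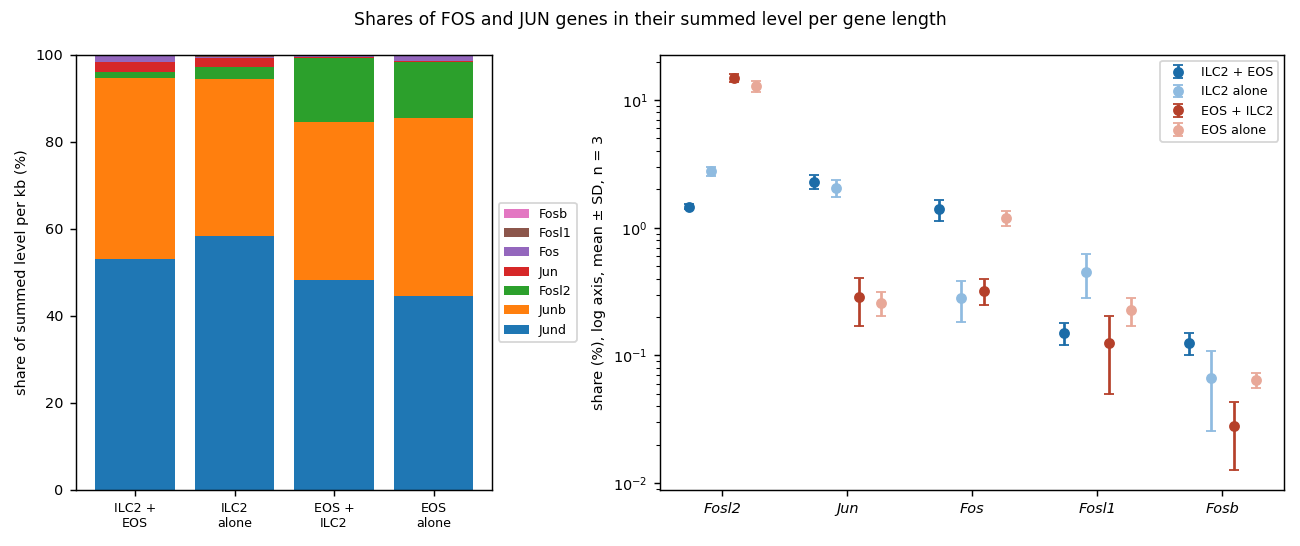
Share (%) of each FOS and JUN gene in their summed level per kb, as stacked group means (left) and as mean ± SD of 3 libraries on a log axis for the 5 less abundant genes (right). *Jund* and *Junb* fill most of each bar, and *Fosl2* takes 1.46% and 2.77% in the ILC2 groups against 14.8% and 12.8% in the eosinophil groups.

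Genes that act with or on AP-1 were followed as lists, chosen with earlier results of these data known. The counts called in all 6 lists are to be read beside the shares over all genes tested. In ILC2s with eosinophils 37.2% of all genes were called higher and 35.2% lower. In eosinophils with ILC2s 13.5% were called higher and 12.4% lower. Other bZIP partners had 14 genes. In ILC2s 4 of the 12 tested were higher with eosinophils and 7 lower, with a median log2 fold change of -0.39. *Batf*, a JUN partner needed for effector programmes of lymphocytes, had 188 ± 5.08 CPM in ILC2s with eosinophils and 23.0 ± 1.94 CPM in ILC2s alone (SD, n = 3 each; log2 fold change 3.04 ± 0.052), and *Jdp2*, a bZIP repressor that pairs with JUN, rose by 1.03. *Bach1*, a repressor that pairs with small MAF proteins, was lower, at -1.47, and *Nfe2l2*, the oxidative stress factor NRF2, at -1.03. In eosinophils 2 of the 12 tested were higher and 3 lower with ILC2s, with a median of 0.02; *Maf* was lower, at -0.45, *Nfe2* at -0.35 and *Mafg* at -0.32. Without eosinophils alone replicate 1, or without eosinophils with ILC2s replicate 1, 1 was higher.

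Kinases and SRF or ETS factors upstream of *Fos* and *Jun* numbered 17, of which 16 were tested in each cell. In ILC2s 10 were higher with eosinophils and 4 lower, with small sizes (median 0.16): *Map2k1*, the kinase MEK1, rose by 0.48, while *Rps6ka3*, a ribosomal S6 kinase, was lower, at -0.66. With library totals 6 were called higher. In eosinophils 3 were higher and 1 lower (median 0.06); *Mapk3*, the kinase ERK1, rose by 0.48 and *Map2k1* was lower, at -0.45. The 5 genes listed as ubiquitin ligase factors that act on JUN, which need not be ligases themselves, were all tested. In ILC2s with eosinophils 4 were lower (median -0.40), among them *Fbxw7* at -0.75 and *Itch* at -0.73, and none had a fold change above 0. In eosinophils 2 were lower with ILC2s (median 0.09), *Trib1* at -0.50 and *Fbxw7* at -0.25. Without eosinophils alone replicate 3, 5 of the kinase and factor genes were higher in eosinophils with ILC2s. Of the ligase factor genes, 1 was lower in eosinophils with ILC2s without eosinophils alone replicate 1, or without eosinophils with ILC2s replicate 1 or 3.

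*Fos* and other immediate early transcripts carry AU-rich elements, and 6 genes for proteins that bind such elements were all tested. In ILC2s 3 were higher and 2 lower with eosinophils (median 0.25). *Zfp36l2*, a decay factor, had 364 ± 1.92 CPM in ILC2s with eosinophils and 1010 ± 21.9 CPM in ILC2s alone (SD, n = 3 each; log2 fold change -1.47), and the stabilizing protein *Elavl1* rose by 0.62. In eosinophils 1 was higher and 2 lower with ILC2s (median 0.01). *Zfp36*, the decay factor tristetraprolin and itself an immediate early gene, fell to 184 ± 7.13 CPM in eosinophils with ILC2s, against 311 ± 5.95 CPM in eosinophils alone (SD, n = 3 each; log2 fold change -0.76), and *Zfp36l2* rose by 0.53.

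Among 17 textbook target genes of AP-1, 7 of the 12 tested were higher and 4 lower in ILC2s with eosinophils (median 1.33). *Mmp10*, a matrix metalloproteinase, had 2405 counts over the 3 libraries of ILC2s with eosinophils and 1 over those of ILC2s alone. *Il6*, a cytokine, had 27.9 ± 0.996 CPM in ILC2s with eosinophils and 3.25 ± 0.773 CPM in ILC2s alone, and *Csf2*, the growth factor GM-CSF, had 44.0 ± 2.69 CPM and 12.1 ± 0.663 CPM in the same order (SD, n = 3 each). *Mmp9*, another metalloproteinase, was lower, at 1.18 ± 0.0648 CPM with eosinophils against 13.4 ± 1.04 CPM alone (SD, n = 3 each; log2 fold change -3.50), as was the adhesion receptor *Cd44* at -1.10. In eosinophils 2 of the 10 tested were higher and 5 lower with ILC2s (median -0.38). *Plaur*, the urokinase receptor, fell to 262 ± 11.4 CPM with ILC2s, against 516 ± 26.1 CPM alone (SD, n = 3 each; log2 fold change -0.98), and *Hmox1*, heme oxygenase 1, fell by 1.17 on the log2 scale. In eosinophils 1 of these targets was higher without eosinophils alone replicate 1 or eosinophils with ILC2s replicate 1. The genes named with a change from these lists all had edgeR adjusted p under the threshold for the changes given.

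Genes that respond to heat shock and to handling of cells, which also move immediate early genes, were counted beside them. In ILC2s with eosinophils 9 of the 11 tested were higher and 2 lower (median 0.65), where 37.2% of all genes tested were called higher and 35.2% lower. *Hsp90aa1*, the inducible form of the chaperone HSP90, had 478 ± 17.0 CPM in ILC2s with eosinophils and 101 ± 4.5 CPM in ILC2s alone, and *Hspd1*, a mitochondrial chaperone, had 205 ± 12.3 CPM and 67.2 ± 2.49 CPM in the same order (SD, n = 3 each). The 2 lower were *Hspa1a* and *Hspa1b*, at -1.76 and -1.37, near-identical copies of inducible HSP70 whose reads may be split or lost; they were picked out after their values were seen. In eosinophils 2 of the 9 tested were higher and 1 lower with ILC2s (median 0.0), with *Hsp90aa1* at 111 ± 3.15 CPM in eosinophils with ILC2s and 205 ± 11.3 CPM in eosinophils alone (SD, n = 3 each). With DESeq2, 1 was higher and 3 lower in eosinophils; 1 was higher without eosinophils alone replicate 1 or without any 1 library of eosinophils with ILC2s, and 3 were lower without eosinophils alone replicate 2. The part of handling in the AP-1 levels was not tested.

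**Figure D5:**
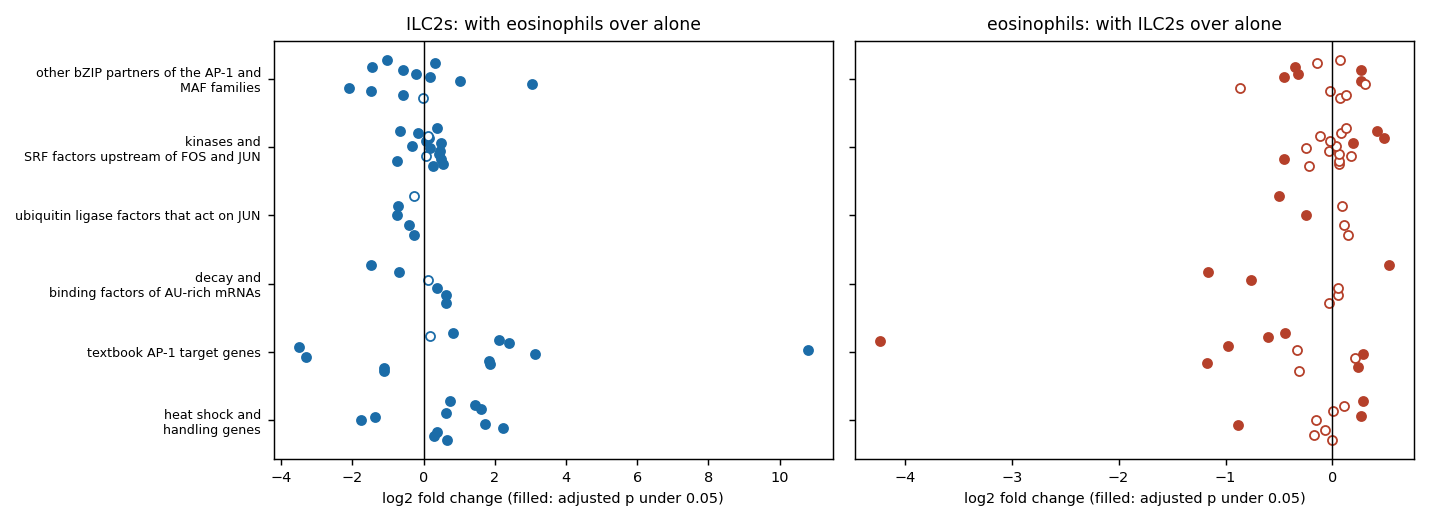
Log2 fold change, coculture over alone, of each tested gene of the 6 lists in ILC2s (left) and eosinophils (right), 3 libraries a group, with filled points for an edgeR adjusted p under 0.05 and vertical offsets only to part the points. The 2 panels have different horizontal scales; the farthest point on the right of the left panel is *Mmp10*, whose fold change depends on 1 count in ILC2s alone.

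For each member that reached 5 CPM in some group, the 3 genes with the closest pattern were found by Pearson's r of log2 CPM over the 12 libraries, among 11187 genes that reached the same level. The libraries come in 4 groups of 3 and share their depth across genes, so that r is a description only. *Fos* was most like *Pgk1* (r = 0.987), a glycolytic enzyme, *Osm* (r = 0.978), a cytokine of the IL-6 family, and *Ruvbl2* (r = 0.977), an ATPase of chromatin complexes. *Osm* averaged 148 and 26.9 CPM in ILC2s with eosinophils and alone, and 39.8 and 159 CPM in eosinophils with ILC2s and alone. *Junb* was most like *Bsg* (r = 0.993), *Tagln2* (r = 0.993) and *Ldha* (r = 0.992), of which *Ldha* encodes a lactate dehydrogenase subunit. *Jund* was closest to *Polr2d* (r = 0.978), *Phlda1* (r = 0.974) and *Cyp11a1* (r = 0.972), the last being the first enzyme of steroid synthesis. *Jun* was closest to *Zmynd19* (r = 0.994), *Med9* (r = 0.987) and *Slc35b4* (r = 0.986). *Maff* was closest to *Rnf217* (r = 0.983), *Pfkfb3* (r = 0.977), a regulator of glycolysis, and *Nedd4l* (r = 0.977). *Fosl2* was closest to the eosinophil-high genes *Cxcr2*, *Pik3r6* and *Treml2*, and *Batf3* to *Siglece*, *C1ra* and *F630028O10Rik*, each with r = 0.999.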

How the data were processed

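The authors deposited 1 table of raw counts, unscaled whole numbers of reads for each gene, and it holds all 12 libraries of NEBNext Ultra II RNA-seq. Per the submitters' processing notes, the genome build was mm10 and the tools were Subread 1.5.2 with featureCounts, STAR 2.5.2b, Trimmomatic 0.36 and bcl2fastq 2.17. Not given in the sources used here are the gene annotation, whether counting used strand, and how multiply mapped reads were handled. GENCODE M21 on the same build gave symbols, positions and exon lengths, for 49056 of 49315 identifiers. Library totals and their limits stand in the text; they cover counting error only.

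The 10 members, the 6 lists and the marker lists were chosen with earlier results of these data known. In edgeR 4.0.16 (R 4.3.3), counts were filtered with filterByExpr, scaled with TMM over all 12 libraries, fitted over the 6 libraries compared (all 12 for the difference of responses) and tested with the quasi-likelihood F test, with Benjamini-Hochberg adjustment over all genes tested and calls under 0.05. The SE is the log2 fold change divided by the square root of F. The biological coefficient of variation that edgeR fitted in common was 4.72% for the ILC2 comparison and 7.95% for the eosinophil comparison. CPM per kb divides by the union of annotated exons. No replicate pair agreed within sampling noise, with a chi-square of 2.57 to 19.5 for each degree of freedom. The fits were tested on simulated data. The text names all members, up to 6 genes of each list by smallest p in each coculture comparison, and 3 genes of like pattern per member at 5 CPM or more, for which log2 CPM had a pseudocount of 0.5. Some genes of the lists are not reported here by name. Alternatives were other scaling, DESeq2 1.42.0, no filter, 1 fit of all libraries, the replicate number as a block, another gene length and leaving out each library.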

Additional observations from a re-analysis of the deposited data

Results flagged for a closer look

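For 7 members the coculture response differed between the cell types by a test of the difference itself (edgeR, all 12 libraries), as the log2 change in ILC2s minus that in eosinophils. *Fos* had 5.76, *Fosb* 3.67, *Maff* 2.58, *Junb* 2.02, *Jun* 1.64, *Jund* 1.38 and *Fosl2* 0.50. For *Fos*, *Fosb*, *Junb*, *Jund* and *Maff* the change was called higher in ILC2s and lower in eosinophils. For *Jun* it was called in ILC2s and not in eosinophils. For *Fosl2* the ILC2 part was called with TMM over all 12 libraries. It was not called with several other settings, among them TMM over the libraries of the fit alone (edgeR adjusted p = 0.058).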

How the results depend on the processing

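Over the members' fold changes and their alternatives, 644 values kept their side of the threshold, 25 lost a call, 7 gained one, and 1 called value, *Fosl2* in ILC2s, changed sign, to -0.03 with library totals. Of the 644, 4 had another sign without being called, all for *Fosl1* between cells alone (-0.15 in the report): 0.42 with library totals, 0.09 with upper quartile scaling, 0.15 without ILC2s alone replicate 3 and 0.01 without eosinophils alone replicate 1. The count of members lower in ILC2s with eosinophils was 0 to 1 when single libraries were left out, and that of members higher was 6 to 8. In eosinophils the members lower with ILC2s were 5 to 7 and all genes called higher 1135 to 1868 when single libraries were left out. Between cells alone, library totals left 3666 genes called lower in ILC2s, which follows from the shift in scale. The cause of the other changes was not tested. Same-numbered libraries did not deviate together in ILC2s (correlations over genes -0.009, 0.045 and -0.034), and in eosinophils 1 of the pairs was under 0.1 (0.07, 0.451 and 0.158), so the numbers were not taken to pair libraries. With the replicate block, 8 members were higher in ILC2s with eosinophils and 7 lower in eosinophils with ILC2s, as without it, while all genes called higher in eosinophils were 2337, against 1767. In eosinophils, replicate 1 with ILC2s correlated better with replicate 3 alone (0.289) than with its own number. Depth limits *Fosb*, *Fosl1* and *Atf3*, whose groups held 18 to 161 counts, and *Batf3* in ILC2s.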
